A study of Arabidopsis thaliana with 12 samples.

Results

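The 92 genes described here had a mean log2 ratio of wounded over not wounded signal equal to a 1.52- to 1.96-fold decrease. The wounded samples were leaves of Arabidopsis rosettes collected 5 min after crushing, and the others came from plants not wounded. Mean signals could differ by less than these folds: for AT3G52620 they were 247 not wounded and 208 wounded. The genes were chosen by their own values. For every spot on a 2-colour Agilent array, the log2 ratio of wounded over not wounded signal was averaged within each biological replicate, which had 4 arrays, and the 3 replicate means were averaged in turn. A spot was kept where the table used here gave it exactly 1 gene, the mean lay above -1.0 and at most -0.6, each replicate lay below -0.3, and the mean not wounded signal was at least 200. Of 9335 spots with 1 named gene, among 22575 spots in all, 114 had a mean in that range, 102 of them also met the replicate limit and 97 also met the signal limit. UF3GT, UGT78D2, CHIL, JMT and AT1G07930 were then left out by name. A further 143 spots met the same values but carried no single gene name and are not described. Because the ratio chose the genes, the ratios below are a description of these pools and were not tested.

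Wild-type plants of the ecotype labelled Col, Columbia-0 in the study's methods, grown on soil for 3 wk, were compared in both groups: the wounded plants had all rosette leaves crushed with a hemostat and were collected 5 min later, and the control plants were not wounded. Each of 3 biological replicates was a pool of plants, and each pair of pools was hybridised on 4 arrays, as 2 technical replicates with the dyes exchanged in each, so that the wounded sample carried Cy5 on 6 arrays and Cy3 on 6. Wounding and its 5 min interval were the only difference that the labels gave. Nothing in the sources states that the pools came from separate growths, so p-values below measure only the spread between these pools.

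The median processed signal lay between 309 and 383 in the not wounded channel and between 317 and 380 in the wounded channel, and the median log2 ratio of all spots lay between -0.04 and 0.06. On those same 12 arrays the median log2 ratio of the 92 genes lay between -0.93 and -0.47. Of 29 cell type markers, 2 had a spot with a name: RCA, the activase of Rubisco in mesophyll, had a mean not wounded signal of 190250 and was lower by 0.45 on the log2 scale (SD 0.19, n = 3, adjusted p = 0.041, limma), and the guard cell gene AT1G22690 had a signal of 6135 and a log2 ratio of -0.09 (SD 0.37, adjusted p = 0.73). The RCA call was lost without replicate 2 (adjusted p = 0.18), without replicate 3 (0.13), without the array whose channel labels differ (0.099), with wounded RNA in Cy5 only (0.059) and with no filter on dim spots (0.057). Without that array, replicate 3 had more arrays with wounded RNA in Cy5 than in Cy3, so the dye effect did not cancel there. The part of these cell types in the values below was not tested. In whole leaves, fewer cells of a type and less RNA per cell cannot be told apart.

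A crushed leaf loses cell integrity at once, and the first transcripts to accumulate include those of transcription factors, calcium sensors and enzymes of jasmonate synthesis. Transcripts for photosynthesis and for ribosomes and translation make up much of the messenger RNA of a leaf. Wall-modifying proteins act in cell expansion, and glycosyltransferases attach sugars to flavonoids, lignin precursors and hormones.

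The 92 genes were read from spots of widely differing brightness, which compares spots and not amounts of transcript. Their mean not wounded signals ran from 212 for ATU2AF35A to 20742 for AFR, with a median of 1714, against a median of 916 for the 6871 spots with 1 named gene and a signal of at least 200. Their median log2 ratio was -0.69, and it was -0.68 in replicate 1, -0.75 in replicate 2 and -0.66 in replicate 3. The median over those 6871 spots was -0.01. The SD between replicates ran from 0.02 to 0.50 among the 92, with a median of 0.14. The most negative replicate was replicate 2 for 47 genes, replicate 1 for 33 and replicate 3 for 12. All 12 arrays gave a lower wounded signal for 64 of the 92 genes, 10 or 11 arrays did for 20, and fewer than 10 did for 8. Over the 6871 spots, 9.45% were lower on all 12 arrays. The rule used these arrays, so no more is read from that share.

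**Figure D1:**
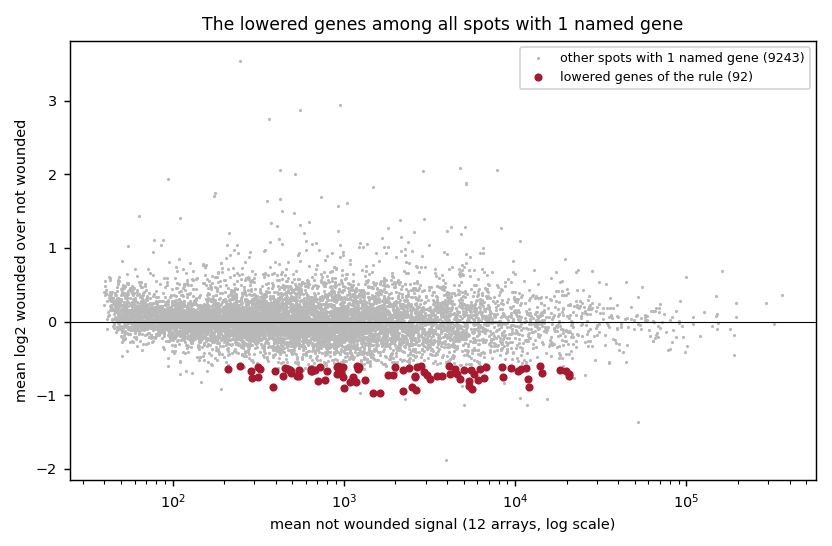
Mean log2 ratio of wounded over not wounded signal (vertical axis) against mean not wounded signal (horizontal axis, log scale) for every spot with 1 named gene. Red points are the 92 chosen genes, which form a band between -0.97 and -0.60 because the rule set it, at signals from 212 to 20742.

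The band was narrow and its edges fell among close neighbours. Just inside the lower edge were AT4G38710 and AT4G14090, both at -0.97, and AT5G62840 at -0.94. Just beyond it were AT3G56290 at -1.03 and AT3G16670 and HYH, both at -1.05. Just inside the upper edge were AT1G57720 at -0.61 and AT2G33250 and AT1G65560, both at -0.60. ATB2, AT2G15020 and AT3G25590 lay just outside it, all at -0.60 after rounding. AT1G65560 and ATB2, on either side of the upper edge, differed by less than the SD between replicates of either.

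Of the 92 genes, 49 had a role that could be stated, and they are taken by role. The other 43 had a median log2 ratio of -0.67.

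**Figure D2:**
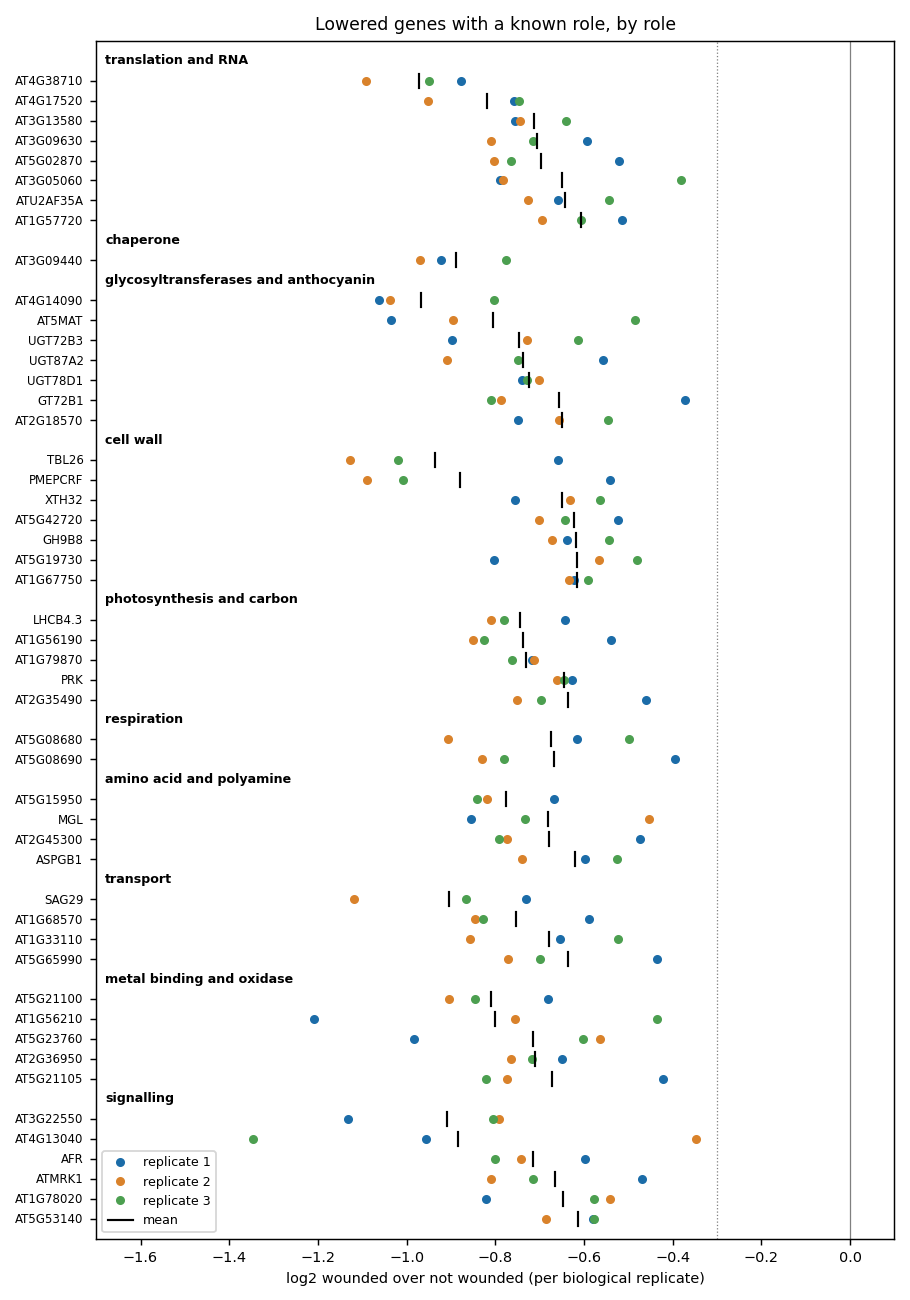
Log2 ratio of wounded over not wounded signal (horizontal axis) in each of the 3 biological replicates (coloured points) and their mean (black bar) for the 49 genes with a stated role, grouped by role. The dotted line marks the replicate limit of -0.3. Most genes have their replicates close to each other, while AT4G13040 and AT1G56210 spread widely.

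Enzymes that decorate flavonoids and other small molecules with sugars or acyl groups were represented by 7 genes, with a median of -0.74. Plants make anthocyanins and flavonols from phenylalanine through the flavonoid pathway, and the finished pigments are stored in the vacuole only after glycosylation and acylation. AT4G14090, the anthocyanidin 5-O-glucosyltransferase, had not wounded signals of 1808, 1490 and 1133 in replicates 1 to 3 and wounded signals of 867, 731 and 646. The groups did not overlap, and its log2 ratios of -1.06, -1.04 and -0.80 (mean -0.97, SD 0.14) amounted to a 1.96-fold lower signal. A second AT4G14090 spot, described further below, had a mean of only -0.23. AT5MAT, which adds malonate to the glucose that AT4G14090 places, had not wounded signals of 770, 734 and 602 and wounded signals of 392, 404 and 439, again without overlap. Its log2 ratios were -1.03, -0.89 and -0.48. AT5MAT differed between the dye orientations, with -1.25 where the wounded sample was in Cy5 and -0.36 where it was in Cy3.

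UGT78D1, the flavonol 3-O-rhamnosyltransferase, was among the genes with the least spread: its log2 ratios were -0.74, -0.70 and -0.73 (SD 0.02). Its signals overlapped all the same, from 1903 to 3835 not wounded and from 1148 to 2298 wounded, since replicate 3 was dimmer than the others in both groups. In each replicate the wounded signal was the lower one. UGT87A2, a glycosyltransferase with a role in flowering time, had log2 ratios of -0.56, -0.91 and -0.75. UGT72B3 had -0.90, -0.73 and -0.61, and GT72B1, which glucosylates monolignols and xenobiotics, had -0.37, -0.79 and -0.81. The 7th gene, AT2G18570, another UDP-glycosyltransferase, had a mean of -0.65. The 6 genes other than AT5MAT were lower on 12 of 12 arrays, and AT5MAT was lower on 11.

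Other glycosyltransferases found by symbol were mostly not called. Those named only by locus were not counted, among them AT1G06000 and AT1G01390, called lower, and AT2G18560 and AT5G17040, not called. Among spots whose symbol begins with UGT, together with GT72B1, 46 carried 1 gene: 4 are described above, UGT78D2 was left out by name, and 37 others could be tested across all 20135 spots that were measured well enough. Of these 37, limma called 7 lower and 2 higher at an adjusted p under 0.05, with a median of -0.06. Over all spots tested, 7.3% were called lower and 7.28% higher. The 7 were UGT71B1, UGT73B2, UGT73B3, UGT74B1, UGT74D1, UGT76E11 and UGT84A3. UGT74D1 had the most negative mean of them, at -0.51 (SD 0.24, adjusted p = 0.044, limma), and UGT74B1, of glucosinolate synthesis, was at -0.36 (SD 0.15, adjusted p = 0.0497, limma). The 2 higher were UGT80B1 and UGT72E1. Among the relatives by symbol in this and the other families below, 16 spots were called. Of these calls 13 held without replicate 1 and 0 held without replicate 2, without replicate 3 or without the array whose channel labels differ, where 16, 16 and 14 had an unadjusted p under 0.05 in a limma fit. With the arrays of 1 dye orientation, 4 held where wounded RNA carried Cy5 and 8 where it carried Cy3, and 3 genes changed sign: UGT73B3 (0.032) and GH9B17 (0.43) in the first and SWEET13 (-1.22) in the second.

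Proteins that build or remodel the cell wall made up 7 genes, with a median of -0.62, all lower on 12 of 12 arrays. The wall of a growing leaf cell is a network of cellulose, xyloglucan and pectin, and pectin methylesterases, pectate lyases and xyloglucan endotransglucosylases alter its stiffness. TBL26, of the family that O-acetylates wall polysaccharides, had not wounded signals of 3213, 2975 and 1683 and wounded signals of 2038, 1363 and 831. Replicate 1 had the smallest difference, and the log2 ratios were -0.66, -1.13 and -1.02. PMEPCRF, a pectin methylesterase, showed the same order, with -0.54, -1.09 and -1.01 (SD 0.30). A second gene of the pectin methylesterase family, AT5G19730, went the other way, with its most negative value of -0.80 in replicate 1 and -0.57 and -0.48 in replicates 2 and 3.

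AT1G67750, a pectate lyase, had log2 ratios of -0.62, -0.63 and -0.59, an SD of 0.02. XTH32, a xyloglucan endotransglucosylase/hydrolase, had not wounded signals of 5303, 4890 and 3170 and wounded signals of 3140, 3153 and 2148. No wounded pool reached the lowest not wounded one, and the log2 ratios were -0.76, -0.63 and -0.56. GH9B8, of the endoglucanase family, had a mean of -0.62 (SD 0.07), and AT5G42720, of the beta-1,3-glucanase family, a mean of -0.62 (SD 0.09). The relatives by symbol were mostly not called: of 6 other XTH spots none was called by limma, of 13 other GH9 spots GH9B17 was called lower, although on 6 of 12 arrays only, and GH9B5 higher, and of 15 other TBL spots TBL16 and TBL28 were called lower. At an unadjusted p under 0.05, 1 of the 6 XTH spots passed, and limma with a robust trend called 0.

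Translation and RNA handling were represented by 8 genes, with a median of -0.70. Leaves devote a large share of their messenger RNA to ribosomal proteins and translation factors. AT4G38710, a glycine-rich protein of the plant eIF4B type, had the most negative mean of the 92. Its not wounded signals were 2100, 1690 and 1090 and its wounded signals were 1148, 773 and 558, so that the groups overlapped between replicates although the wounded signal was lower in each. The ratios of its pools were -0.88, -1.09 and -0.95 on the log2 scale. AT4G17520, of the hyaluronan/mRNA-binding family, had a mean of -0.82 but differed with the dye, from -0.44 (wounded in Cy5) to -1.20 (wounded in Cy3).

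Ribosomal proteins L4 and L7 of the large subunit were encoded by 3 of the genes. AT5G02870, an L4 gene, had not wounded signals of 19075, 15175 and 8993 and wounded signals of 13350, 8743 and 5293. Its log2 ratios were -0.52, -0.80 and -0.77, and those of the other L4 gene, AT3G09630, were -0.59, -0.81 and -0.72, so that both were least negative in replicate 1. A second AT5G02870 spot, described further below, had a mean of 0.03. AT3G13580, an L7 gene, had -0.75, -0.75 and -0.64. AT1G57720, the gamma subunit of elongation factor 1B, had a mean of -0.61 (SD 0.09), and AT3G05060, a NOP58-like protein of the nucleolar particles that guide rRNA methylation, had a mean of -0.65 (SD 0.23). ATU2AF35A, the small subunit of the U2AF splicing factor, was close to the signal limit. Its signals were 224, 218 and 193 not wounded and 140, 127 and 126 wounded, and its ratio was -0.01 when wounded RNA carried Cy5 and -1.27 when it carried Cy3.

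AT3G09440, a cytosolic HSP70 chaperone, had log2 ratios of -0.92, -0.97 and -0.78. Its value was the same in both dye orientations, at -0.89. The signal ran from 1588 to 3213 in the not wounded pools and from 932 to 1695 in the wounded pools.

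Photosynthesis and carbon metabolism had 5 genes, all lower on 12 of 12 arrays, with a median of -0.73. In the Calvin cycle, phosphoribulokinase regenerates the acceptor of CO2 and phosphoglycerate kinase acts on the first product. PRK had not wounded signals of 8030, 6623 and 4030 and wounded signals of 5200, 4198 and 2575. The ratio was nearly the same in each pair of pools, at -0.63, -0.66 and -0.65, the smallest SD of the 92 (0.02). AT1G56190, a phosphoglycerate kinase, had -0.54, -0.85 and -0.83, and its wounded signals of 1558 to 2668 lay below all 3 not wounded signals of 2758 to 4638. AT1G79870, a hydroxypyruvate reductase of photorespiration, had -0.72, -0.71 and -0.76 (SD 0.03). LHCB4.3, a minor antenna protein of photosystem II, had signals of 22875, 24550 and 14375 not wounded and 14625, 14100 and 8373 wounded. LHCB4.3 thus had log2 ratios of -0.64, -0.81 and -0.78. AT2G35490, a plastid lipid-associated protein, had a mean of -0.64 (SD 0.15).

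Both genes of respiration encode the beta subunit of the mitochondrial ATP synthase, the catalytic part of the enzyme, and lie next to each other in the genome. AT5G08690 had not wounded signals of 21850, 23925 and 13750 and wounded signals of 16575, 13475 and 7983. Its log2 ratios were -0.39, -0.83 and -0.78. AT5G08680 had signals of 718, 670 and 529 not wounded and 468, 358 and 391 wounded, and its log2 ratios of -0.62, -0.91 and -0.50 gave a mean of -0.67, the same as that of AT5G08690 after rounding. Copies this alike can bind each other's probe, and what each spot captured was not tested.

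Amino acid and polyamine metabolism had 4 genes, with a median of -0.68. AT5G15950, an S-adenosylmethionine decarboxylase that supplies polyamine synthesis, had not wounded signals of 14475, 13875 and 7475 and wounded signals of 9083, 7865 and 4218. The log2 ratios of AT5G15950 were -0.67, -0.82 and -0.84. AT2G45300, the EPSP synthase of the shikimate pathway, which leads to phenylalanine, had -0.47, -0.77 and -0.79. MGL, the methionine gamma-lyase, was least negative in replicate 2, with -0.86, -0.45 and -0.73. ASPGB1, an asparaginase, had -0.60, -0.74 and -0.53, and its 3 wounded signals of 645 to 920 lay below the not wounded ones of 934 to 1393.

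Transporters of sugars, nitrogen compounds and other small molecules made up 4 genes, all lower on 12 of 12 arrays. SAG29, also named SWEET15, exports sucrose and accumulates in senescing leaves. Its not wounded signals were 1133, 1097 and 787 and its wounded signals were 682, 517 and 426, without overlap, and its log2 ratios were -0.73, -1.12 and -0.87. AT1G68570, the nitrite and gibberellin transporter NPF3.1, had -0.59, -0.85 and -0.83 with a not wounded signal of 8430. AT1G33110, of the MATE efflux family, had a mean of -0.68 and AT5G65990, of an amino acid transporter family, a mean of -0.64. Of the 10 other SWEET spots tested, limma called SWEET1 and SWEET2 lower and SWEET13 higher.

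Metal-binding proteins and oxidases had 5 genes. AT5G21100 and its neighbour AT5G21105, both of the ascorbate oxidase family of the wall space, had means of -0.81 and -0.67. AT5G21100 was lower on 12 of 12 arrays, whereas AT5G21105 averaged 0.06 where wounded RNA carried Cy5 and -1.41 where it carried Cy3. Proteins with a heavy metal-associated domain were AT1G56210, AT5G23760 and AT2G36950. AT1G56210 had the widest spread among the brighter genes, with log2 ratios of -1.21, -0.76 and -0.43 (SD 0.39). AT5G23760 was also most negative in replicate 1, at -0.98, against -0.56 and -0.60. AT2G36950 had a mean of -0.71 (SD 0.06).

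Signalling proteins had 6 genes. AFR, an F-box protein with kelch repeats that acts in phytochrome A signalling, had signals of 22825, 24750 and 14650 not wounded and 15050, 14775 and 8395 wounded. Its log2 ratios were -0.60, -0.74 and -0.80. AT3G22550 and AT1G78020 encode FCS-like zinc finger proteins, adaptors of the energy-sensing kinase SnRK1, and both were most negative in replicate 1, at -1.13 and -0.82. The 3 wounded signals of AT3G22550, 2940, 3625 and 2258, lay below its 3 not wounded signals, 6455, 6263 and 3978. ATMRK1, a Raf-related kinase, had a mean of -0.66 (SD 0.18) and AT5G53140, of the PP2C phosphatases, one of -0.61 (SD 0.06). AT4G13040, a protein with an AP2 domain, had the least uniform values: its log2 ratios were -0.96, -0.35 and -1.35, and it was lower on 7 of 12 arrays.

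Bright genes without a stated role included AT1G55960, with a mean of -0.89 at a not wounded signal of 12042, AQI, an interactor of aquaporins, with -0.34, -0.81 and -0.81 at 18158, and AT4G16490 with a mean of -0.61 at 14007. AT5G62840, of the phosphoglycerate mutase family, had -0.90, -0.999 and -0.93.

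**Figure D3:**
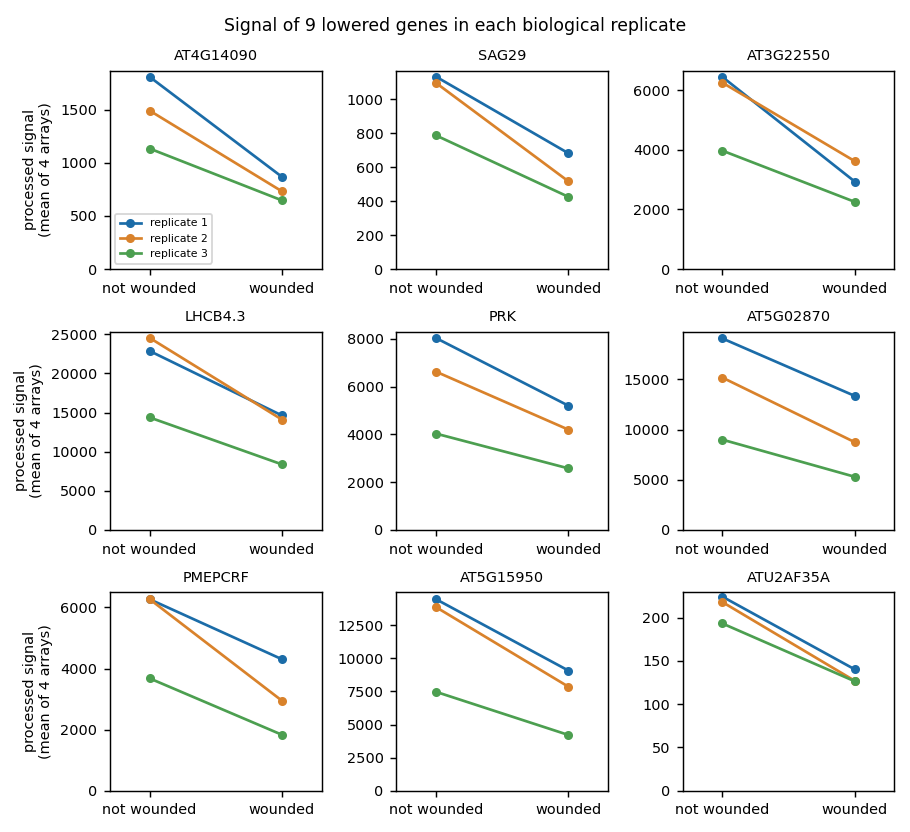
Processed signal (vertical axis, mean of 4 arrays, starting at 0) of 9 of the genes in the not wounded and wounded pools, 1 line for each biological replicate. Every line slopes down, and replicate 3 is the dimmest in all 9 not wounded panels, so that for LHCB4.3 and PRK the groups overlap although each pair differs.

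In 30 of the 92 genes the 3 wounded signals all lay below the 3 not wounded signals, against 2.68% of the 6871 spots, a share that the rule again bears on. Compared pool by pool, the mean wounded signal was below the not wounded signal of the same replicate in 275 of 276 pairs. The exception was AT3G52620 in replicate 3, with 206 not wounded and 210.2 wounded. The rule had asked for a negative log2 ratio in every replicate, so the count of 275 was nearly fixed by the choice of genes. It is no measure of how well the pools repeat each other.

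The exchange of dyes gave a measure that the rule had not used. The difference between the log2 ratios of the 2 orientations, divided by 2, is the excess of Cy5 over Cy3, and it was tested with limma over the 3 replicates. Of all 20135 spots, 23.7% had a dye effect at an adjusted p under 0.05, and of the named spots with a signal of at least 200, 10.4%. Among the 92 genes 8 did, a share of 8.7% that lay close to the latter. In 5 of the 8 Cy5 was the brighter, in AT3G50910, ATU2AF35A, AT1G64430, AT5G47550 and AT3G52620, and in 3 Cy3 was, in AT3G24460, AT5MAT and AT5G12470. The largest was that of AT3G52620, at 1.90 ± 0.23 (SE, n = 3, adjusted p = 0.016, limma).

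The dye effect was concentrated at low signals. At a signal limit of 700, which was set after the values were seen, the median size of the effect, whatever its sign, was 0.74 in the 23 dimmer genes and 0.08 in the 69 brighter ones. For all named spots the corresponding medians were 0.29 from 200 to 700 and 0.09 at 700 or more. In 11 of the 92 genes, all with signals from 247 to 492, the ratio was above 0 when wounded RNA carried Cy5 and below 0 when it carried Cy3. These were AT4G13040, AT5G60030, AT2G44970, AT1G73180, AT5G21105, AT1G64430, AT5G14440, AT1G78450, AT4G15970, AT5G47550 and AT3G52620. For AT3G52620 the means were 1.29 and -2.51, and it was higher on 6 arrays and lower on 6. Over the 6871 named spots, 47.4% changed sign with the orientation. None of the 69 brighter genes did, and 61 of the 69 were lower on 12 of 12 arrays. The rule bears on both counts. It held the mean of both orientations well below 0, so only a large dye effect could change the sign of a chosen gene. The 6871 spots had a median log2 ratio of -0.01, where a small dye effect can change it, so the shares are not compared. The count of arrays comes from the ratios that chose the genes.

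**Figure D4:**
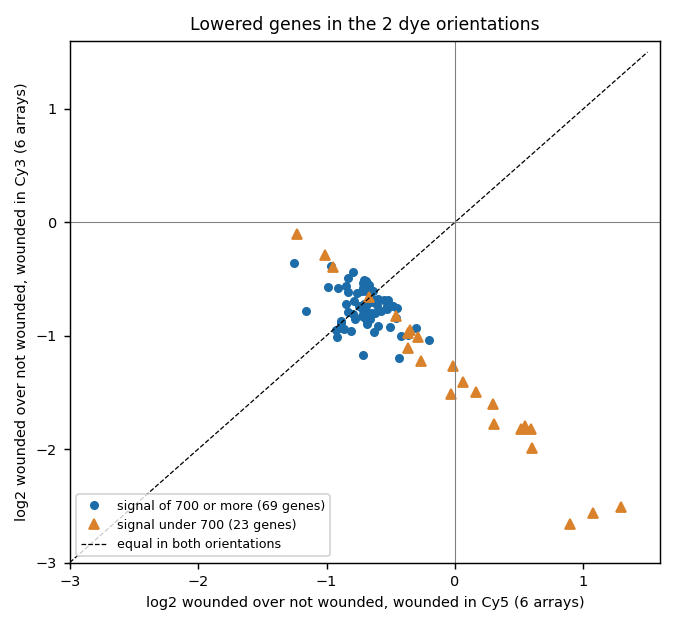
Mean log2 ratio of wounded over not wounded signal on the 6 arrays labelling wounded RNA with Cy3 (vertical axis) against that on the 6 labelling it with Cy5 (horizontal axis) for the 92 genes. The points follow a falling line because the rule fixed the mean of both axes. Brighter genes (circles) gather near the dashed line of equal values and the 11 genes right of 0 are all dim (triangles).

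For 2 of the genes the array carried a second spot that did not meet the rule, and neither repeated the value of the first. The other AT4G14090 spot, at a not wounded signal of 2885, had log2 ratios of -0.25, -0.23 and -0.22 and was lower on 12 of 12 arrays. Its mean of -0.23 ± 0.05 (SE, n = 3) had an adjusted p of 0.057 by limma, against -0.97 at the chosen spot. The other AT5G02870 spot, at a signal of 720 against 14414, had log2 ratios of -0.09, 0.13 and 0.04, a mean of 0.03 ± 0.07 (SE, adjusted p = 0.79, limma). The difference between spots was not tested, and the stretch of transcript that each spot matches is not given in the sources used here.

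Close relatives of the genes were taken as listed paralogues after the choice. The rule bears on this set too, since paralogues that met it, such as AT3G09630 and AT5G08680, are not counted. The median and the counts below therefore describe only relatives that were not chosen. Of 52 relatives in 21 families, 31 had a spot that could be tested, and their median was -0.16. limma called 7 lower, 3 higher and 21 in neither direction, against 7.3% lower and 7.28% higher over all spots tested. LHCB4.1 and LHCB4.2, at wounded signals of 302083 and 167083, had log2 ratios of -0.03 (SD 0.23) and -0.10 (SD 0.11) and were not called, against -0.74 for LHCB4.3. RPL7B, AT2G01250, rose by 0.43 (SD 0.06, adjusted p = 0.021, limma), whereas the spots of AT1G80750 and AT2G44120 were at -0.16 and -0.10 and were not called, against -0.71 for AT3G13580. SWEET13 rose by 0.78 (SD 0.35, adjusted p = 0.034, limma) but was lower on 6 of 12 arrays.

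Other relatives were lower as well. AT1G48860, a relative of EPSP synthase, fell by 0.54 on the log2 scale (SD 0.09, adjusted p = 0.017, limma). AT5G47210, of the hyaluronan/mRNA-binding family, fell by 0.49 (adjusted p = 0.031, limma), and AT1G01390, or UGT72B2, by 0.47 (adjusted p = 0.023, limma). AT1G09640, the other gamma subunit of elongation factor 1B, fell by 0.39 (adjusted p = 0.035, limma), and U2AF35B, the other small U2AF subunit, by 0.35 (adjusted p = 0.028, limma). The FCS-like zinc finger gene AT5G20700 and the asparaginase ASPGA1 were the remaining genes called lower. Relatives at -0.40 or below that were not called included AT5G08670, the third ATP synthase beta gene beside AT5G08680 and AT5G08690, at -0.40 (adjusted p = 0.058, limma), SAMDC at -0.42 (adjusted p = 0.080, limma) and HPR at -0.67 (SD 0.39, adjusted p = 0.057, limma), which missed the rule through its value of -0.22 in replicate 1. Of the 10 relatives called, 8 were still called without replicate 1. Without replicate 2, without replicate 3 or without the array whose channel labels differ, 0 were. Calls over all spots also fell in these settings, in that order, from 1469 to 52, 220 and 85 lower and from 1466 to 140, 336 and 174 higher. All 10 relatives had an unadjusted p under 0.05 by limma in each of these settings and kept their sign. With wounded RNA in Cy5 only 5 were called, and in Cy3 only 3 were. In Cy3 only, SWEET13 was at -1.22 (adjusted p = 0.035, limma), lower where the main fit called it higher.

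**Figure D5:**
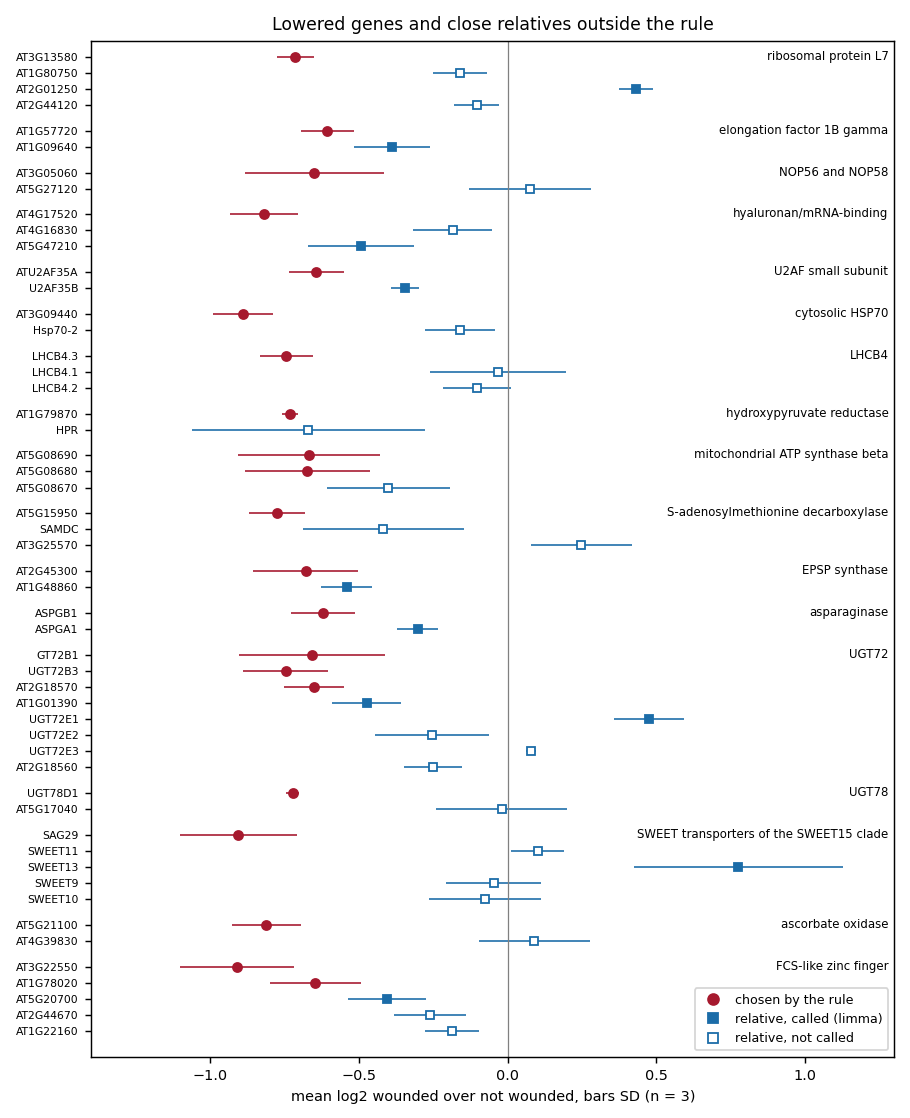
Mean log2 ratio of wounded over not wounded signal with SD bars (horizontal axis, n = 3) for chosen genes (red circles) and their close relatives (blue squares, filled where limma called them), by family. LHCB4.1 and LHCB4.2 lie near 0, while AT1G48860, the EPSP synthase relative, and the FCS-like zinc finger relatives lie below it. The UGT72 relatives lie on both sides of 0, with AT1G01390 called lower at -0.47 and UGT72E1 called higher at 0.47.

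Some of the 92 also lie side by side on the chromosome. In the order of protein-coding genes of the RefSeq annotation of assembly TAIR10.1, GT72B1 is next to TBL26, AT5G08680 next to AT5G08690 and AT5G21100 next to AT5G21105, and AT1G56190 and AT1G56210 have 1 gene between them. GT72B1 and TBL26, which belong to different families, had log2 ratios of -0.37, -0.79 and -0.81 and of -0.66, -1.13 and -1.02, the least negative in replicate 1 for both. That order is not particular to neighbours: PMEPCRF and AFR, which lie elsewhere, shared it, while XTH32 was most negative in replicate 1. Whether the 92 lie side by side more often than other genes was not tested.

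Among 14 lists of leaf pathways with 220 genes, 32 genes had a spot with their name, and 2 of those were among the 92: UGT78D1 for flavonoid synthesis and LHCB4.3 for photosynthesis. Of 27 others that could be tested and were not left out by name, limma called 5 lower and 5 higher. Over all spots tested, the shares were 7.3% and 7.28%. Each list that had any of the 27 held only 1 to 5 of them, so the calls describe single genes. In flavonoid synthesis, AT1G06000, which adds rhamnose at position 7 of flavonols, fell by 1.13 (SD 0.08, adjusted p = 0.0075, limma), and DFR, which makes the precursor of anthocyanidins, was at -0.53 (SD 0.29, adjusted p = 0.055, limma). UF3GT, UGT78D2 and CHIL of the same list, with means of -0.97, -0.83 and -0.68, had been left out of the 92 by name. In light signalling, HYH, a bZIP factor close to HY5, fell by 1.05 (SD 0.16, adjusted p = 0.011, limma). In photosynthesis RCA was the only gene of 4 called, as given above. In nitrogen and sulphur assimilation SIR, the sulphite reductase, fell by 0.55 (SD 0.23, adjusted p = 0.036, limma), and in glucosinolate synthesis UGT74B1 was called lower and BCAT4 was not, at -0.14.

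The genes called higher came from other lists. CCL of the circadian clock list rose by 1.27 (SD 0.15, adjusted p = 0.0077, limma) and GI by 0.35 (SD 0.10, adjusted p = 0.037, limma). PORB of tetrapyrrole synthesis rose by 1.21 (SD 0.31, adjusted p = 0.015, limma). DPE1 and PWD of starch metabolism rose by 0.68 and 0.36. No tested gene of the carotenoid, cytokinin response regulator, expansin and XTH, or Aux/IAA lists was called by limma in either direction, and 1 of these 8 genes had an unadjusted p under 0.05. Limma with a robust trend called 0 of them. Of the 10 calls, 4 held without replicate 2, 5 without replicate 3, 3 without the array whose channel labels differ and 6 with no filter on dim spots.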

How the data were processed

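Total RNA of wounded and not wounded rosette leaves was labelled with Cy3 and Cy5 and hybridised pairwise to 12 Agilent 2-colour arrays. The authors deposited each array's processed signal intensity in both channels, the output of Agilent Feature Extraction 8.1 per the submitters' processing notes, and a series table of Cy5 over Cy3 as log10 ratios, which holds exact 0 at dim spots. Per the methods, the dyes were balanced with a factor from housekeeping control spots. The methods name a TAIR annotation release for the array's probes, and no coordinates were used.

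Channels were assigned from the labels. The dye exchange of the second technical replicate in replicate 3 had a wounded channel numbered 4 but a title numbered 3, and the title was followed. Log2 ratios of the intensities were turned to wounded over not wounded and differed from the deposited log10 ratios by a median of at most 0.000491 on the log10 scale where those were not 0. Technical replicates and dye exchanges were averaged, so that n = 3. Spots with a deposited ratio other than 0 on at least 1 array of each of the 6 exchange pairs were tested, 20135 of 22575, with limma 3.58.1 in R 4.3.3 and Benjamini-Hochberg adjustment over all of them at 0.05. The dye effect was fitted likewise on the difference between orientations divided by 2. The fit was tested on simulated data.

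The platform table named 1 gene for 9335 spots, several for 40 and none for 13200, and 9317 were matched to RefSeq (TAIR10.1) for symbols and gene order. The 92 genes, the lists and the rule for naming (lowest means, highest signals, largest and smallest SD, edges of the range, list members and genes with a symbol) were chosen with earlier results of these data known. Roles, relatives, families by symbol and the signal limit of 700 were set after the values were seen. Slide and scan were not used. Promoter sequences were not analysed here. The number of replicates, 3 pairs of pools, limits the precision.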

Additional observations from a re-analysis of the deposited data

How the results depend on the processing

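The number of genes that met the rule was 92, and 90 to 97 with median centring, loess, the deposited log10 ratios, medians over arrays, spots of a gene averaged, a signal limit of 100 or the dim filters. It was 74 without the array whose labels differ, 76 with a signal limit of 500, 102 with each replicate below 0, and 83 to 130 on leaving out a replicate. Of the 92, 67 still met the rule without that array, 71 without replicate 1, 71 without replicate 2 and 85 without replicate 3. Arrays of a single orientation moved the number. With the wounded sample in Cy5 only, 249 genes met the rule, 49 of them among the 92. In Cy3 only 412 did, 55 of them among the 92. The median log2 ratio of the 92 lay between -0.68 and -0.72 on leaving out a replicate and was -0.80 in Cy3 only.

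Of all spots, 1469 were called lower and 1466 higher. These counts were 3148 and 2844 with the wounded sample in Cy5 only, 3246 and 3861 in Cy3 only, 3053 and 3104 with arrays fitted singly, and 85 and 174 without the array whose labels differ. Without that array the dye orientations were unequal in replicate 3, and the part of this in these counts was not tested. Leaving out a replicate gave 52 to 1689 lower and 140 to 1490 higher, fewest without replicate 2. The dye effect, called for 4765 spots, was called for 312 to 6647 on leaving out a replicate.

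The 5 lower and 5 higher calls among list genes outside the 92 were 9 lower with arrays fitted singly, 2 lower without a filter, 2 lower and 1 higher without the array whose labels differ, and 2 to 7 lower and 2 to 6 higher on leaving out a replicate.

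Of 580 values of 58 named spots, 572 kept their direction, 24 lost a call, 7 gained one and 27 moved by more than the SD between replicates. Of the 58 spots, 36 were chosen genes, which the rule held below -0.3 in every replicate. Leaving out a replicate could not change the sign of these, so the count of 572 was partly fixed by the choice of genes. Signs changed for AT4G13040 (0.90) and AT3G52620 (1.29) in Cy5 only, for LYC in Cy5 only (-0.16) and without replicate 1 (-0.048, range on leaving out a replicate to 0.071), for PSAE-1 in Cy3 only (-0.036), and for the second AT5G02870 spot in Cy3 only (-0.26), with medians over arrays (-0.019) and without replicate 2 (-0.021, range on leaving out a replicate to 0.089). The cause was not tested. Each ratio already pairs the wounded and not wounded pool of 1 replicate, so no further block was fitted. A search for promoter motifs was not run.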
